A study of Neurospora crassa with 6 samples.

Results

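The gene examined was aod-1 (NCU07953), which encodes the mitochondrial alternative oxidase of the filamentous fungus Neurospora crassa. It was taken by its locus tag as 1 of the 9730 genes in the deposited table. RNA was sequenced from 6 liquid cultures, 3 of control strain 328-4 and 3 of strain 1810, which carries a barR resistance marker at the clock gene period-2 (prd-2). Strain 328-4 is not a plain wild type: like strain 1810 it is of mating type A and bears ras-1 bd, an allele used to see rhythmic conidiation. Growth lasted 48 h in constant light at 25 °C, with shaking, in Bird medium containing 1.8% glucose. Each genotype was 1 strain, so strain background and loss of prd-2 cannot be told apart, and a p-value here reflects only how cultures of those strains vary. The study asked what the loss of prd-2 changes in the transcriptome.

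The alternative oxidase sits in the inner mitochondrial membrane and passes electrons from ubiquinol straight to oxygen. It bypasses complex III and cytochrome c oxidase (complex IV), pumps no protons, and is insensitive to cyanide and antimycin. In Neurospora the enzyme is nuclear-encoded and is known for low expression during ordinary growth and for induction when the cytochrome pathway is inhibited or defective. The genes aod-2 and aod-5 encode zinc cluster transcription factors required for that induction, and aod-3 is a second alternative oxidase gene.

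Expression was given as FPKM, the fragments of a gene divided by its transcript length and by library size, which summed to between 657467 and 688885 per culture. FPKM hold no absolute fragment counts, but steps among the lowest values put the FPKM worth of 1 fragment at 0.961 to 1.127 times that in control replicate 1. Pearson correlations across genes were 0.989 to 0.996 within a strain and 0.938 to 0.961 between strains. The disrupted gene prd-2 (NCU01019) measured 26.2 ± 1.31 FPKM in control cultures and 6.78 ± 0.784 FPKM in mutant cultures (SD, n = 3 each), although its annotated span overlaps that of NCU01021.

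The aod-1 transcript was higher in the prd-2 mutant, and it was uneven among the cultures of both strains. Control replicates 1, 2 and 3 measured 30.8, 70.2 and 109 FPKM. Mutant replicates 1, 2 and 3 measured 185, 117 and 165 FPKM. All 3 mutant values lay above all 3 control values, but narrowly: the lowest mutant culture exceeded the highest control culture by 7.97 FPKM, or 1.07 times. Such a complete separation upward was found for 30.5% of the 7797 tested genes. In RNA of whole cultures, more transcript per cell and more cells with the transcript cannot be told apart.

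Mean aod-1 expression was 70.1 ± 39.2 FPKM in control cultures and 156 ± 34.7 FPKM in mutant cultures (SD, n = 3 each), so the mutant mean was 2.22 times the control mean. The log2 fold change on the log2(FPKM + 1) scale was 1.29 (SE 0.420, limma's adjusted p = 0.0386). At this threshold of 0.05 on the adjusted p, 47.8% of tested genes passed, with 24.0% of tested genes higher and 23.8% lower in the mutant. With 3 cultures against 3, the exact two-sided permutation test of aod-1 alone gave p = 0.1, the smallest value it can give.

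The direction of the aod-1 difference held with any single culture left out, but its call did not. Without control replicate 2 limma's adjusted p was 0.0777, and without mutant replicates 1, 2 and 3 it was 0.115, 0.0524 and 0.0954. Leaving out control replicate 1, the lowest culture, reduced the log2 fold change to 0.80 (SE 0.240, limma's adjusted p = 0.0362). The call was also lost, at an adjusted p of 0.0505, when genes of low expression were not filtered out.

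**Figure D1:**
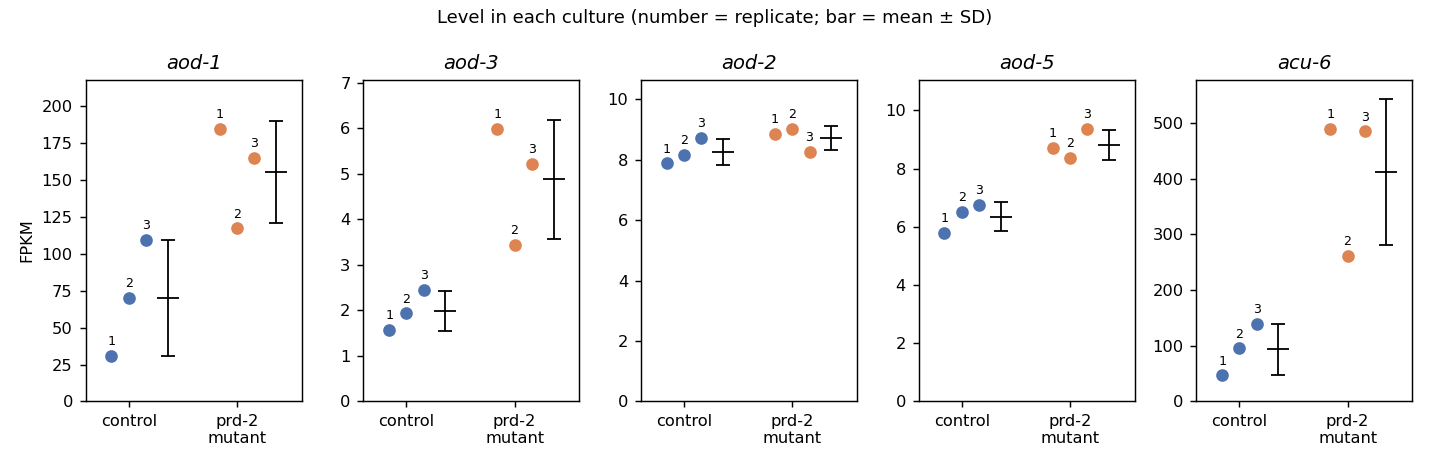
FPKM of aod-1, aod-3, aod-2, aod-5 and acu-6 in each culture, on linear axes from 0, with the replicate number above each point and the mean ± SD beside each strain (n = 3). The aod-1 controls run from 30.8 to 109 FPKM and the mutants from 117 to 185 FPKM, and acu-6 and aod-3 rank the 6 cultures in the same order.

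By level, aod-1 ranked 1536 of 9730 genes by mean FPKM in control cultures and 732 in mutant cultures. In single cultures its rank ran from 3119 in control replicate 1 to 982 in control replicate 3, and from 987 in mutant replicate 2 to 601 in mutant replicate 1. Control replicate 3 and mutant replicate 2 therefore held nearly the same rank although they belong to different strains.

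Set among 44 genes with respiratory chain symbols, aod-1 stood at position 32 of 45 by control mean and at position 27 by mutant mean. These levels are FPKM and so are per length. In the controls its nearest neighbours above were nuo49 at 70.2 ± 4.22 FPKM, a complex I subunit gene, and cox-4 at 75.0 ± 1.28 FPKM, a complex IV subunit gene (SD, n = 3 each). Below it came nuo78 at 55.4 ± 1.64 FPKM and nuo24 at 55.1 ± 5.55 FPKM, both complex I genes. The ranges of these 4 genes, and those of the next gene on either side, nuo19.3 and cyt-1, lay inside the aod-1 range, so their order relative to aod-1 is not fixed beyond the spread. In the mutant cultures nuo10.5 (166 ± 3.55 FPKM) and nuo19.3 (129 ± 5.09 FPKM) were its neighbours, and both overlapped the aod-1 range.

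**Figure D2:**
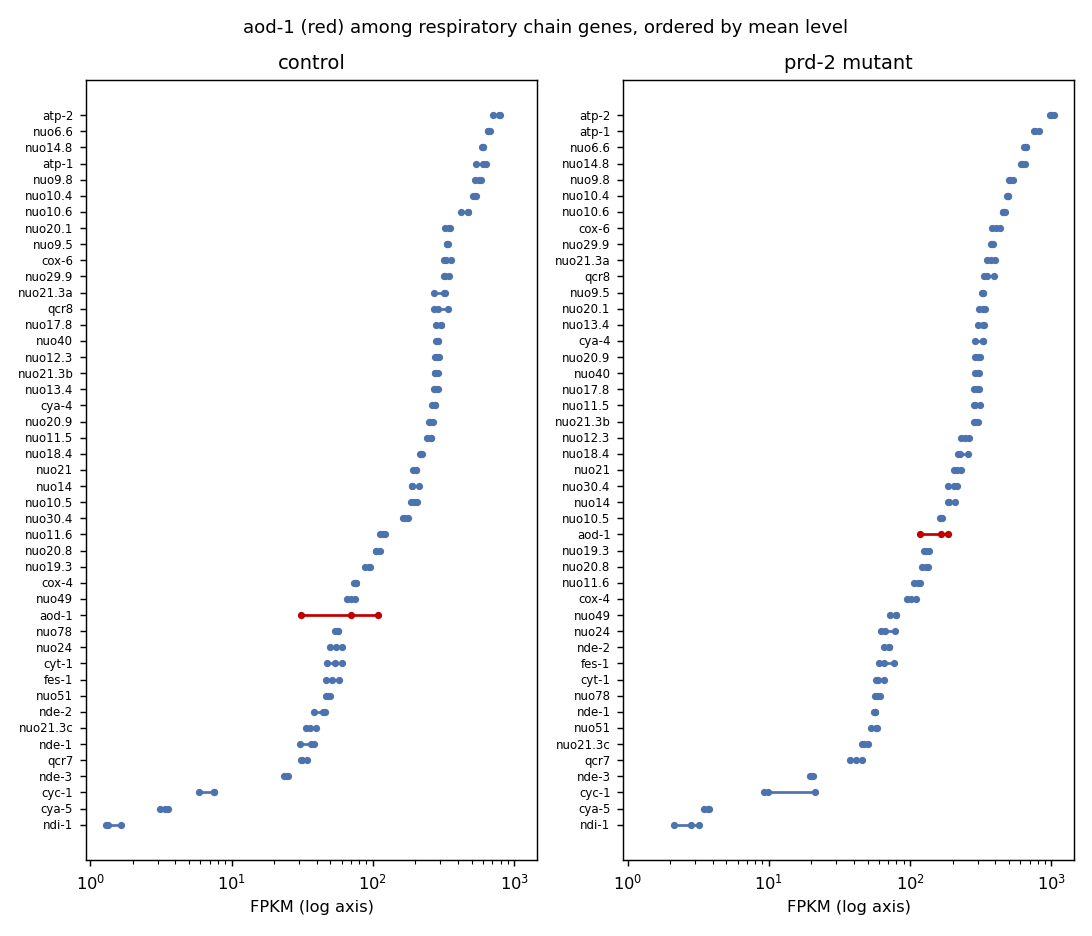
FPKM (log axis) of aod-1, in red, and 44 respiratory chain genes in blue, ordered by mean in the control (left) and mutant (right) cultures. Points are cultures and lines join the lowest to the highest; the aod-1 line is the longest among the genes near it, and aod-1 moves from position 32 to position 27 counted from the highest.

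The size of the change was large for a gene of this abundance. Mean log2(FPKM + 1) over the 6 cultures lay within 0.5 of that of aod-1 for 816 other genes, whose mean expression ran from 68.7 to 188 FPKM against 113 FPKM for aod-1. Of these, 800 had a smaller log2 fold change than aod-1, which put it at percentile 98.0, and 16 had a larger one. Counting rises and falls alike, 27 of the 816 changed by more. That put aod-1 at percentile 96.7 by size of change, or 91.0 to 98.1 with a culture left out. The median log2 fold change of the 816 genes was 0.098, and their 5th and 95th percentiles were -0.65 and 0.85. Without control replicate 1 the percentile of the aod-1 log2 fold change, with its sign, was 94.5 among 642 genes.

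**Figure D3:**
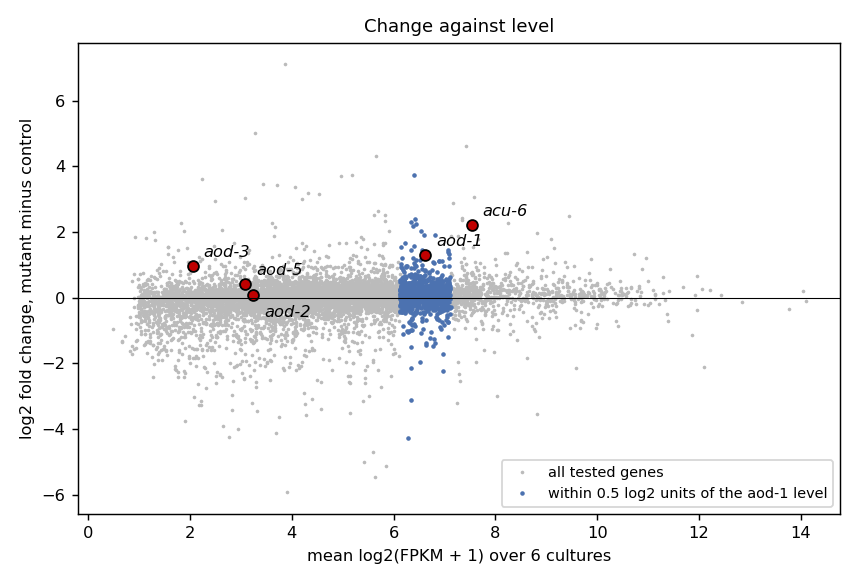
Log2 fold change (mutant minus control) against mean log2(FPKM + 1) over 6 cultures for all tested genes in grey, with the 816 genes near the aod-1 level in blue and the aod genes and acu-6 in red. The aod-1 point lies above 800 of the 816 blue points.

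The precision of the aod-1 change was among the lowest at this level. The SD of log2(FPKM + 1) among the 3 control cultures was 0.91 for aod-1, larger than for any of the 816 genes, whose median was 0.077. Over all 7797 tested genes, 30 (0.385%) had a larger control SD. Among the mutants the aod-1 SD was 0.34, exceeded by 24 of the 816 genes. Its SE was 6.42 times the median SE of the 816 genes, and 466 of them had a smaller p. All 16 genes of similar expression that rose by more than aod-1 had a smaller SE, but only 3 of the 816 had a larger one. Of the 816 genes, 483 (59.2%) passed the threshold, 312 higher and 171 lower.

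**Figure D4:**
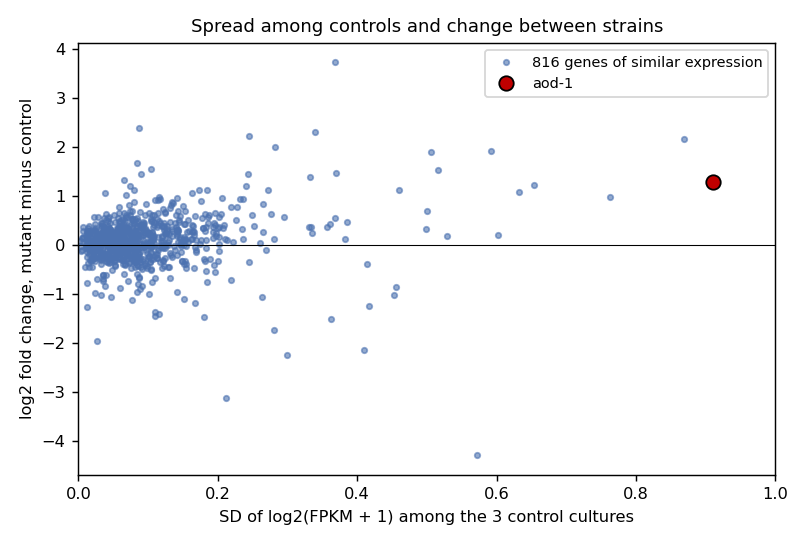
Log2 fold change (mutant minus control) against the SD of log2(FPKM + 1) among the 3 control cultures for the 816 genes of similar expression (blue) and aod-1 (red). The aod-1 point, at an SD of 0.91 and a change of 1.29, lies farthest to the right.

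Of the other 3 genes with an aod symbol, aod-3 and aod-5 rose and aod-2 did not pass the test, where 24.0% of all tested genes were higher. The second oxidase gene, aod-3 (NCU04874), measured 1.57, 1.94 and 2.44 FPKM in control replicates 1, 2 and 3. In mutant replicates 1, 2 and 3 it measured 5.99, 3.44 and 5.22 FPKM. These ranges did not overlap, and the cultures ranked in the same order as for aod-1. The log2 fold change was 0.97 (SE 0.188, limma's adjusted p = 0.00483), which understates the 2.46-fold ratio of the means because the values are near the pseudocount of 1. The aod-1 level was 33.5 ± 12.7 times that of aod-3 in control cultures and 32.2 ± 1.68 times in mutant cultures (SD, n = 3 each).

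Of the regulators, aod-5 (NCU03938) measured 5.80, 6.51 and 6.74 FPKM in control cultures and 8.69, 8.37 and 9.36 FPKM in mutant cultures. Its mutant values lay above all controls, and its log2 fold change was 0.42 (SE 0.077, limma's adjusted p = 0.00373). The transcript of aod-2 (NCU03352) stayed within 7.88 to 8.72 FPKM in control cultures and within 8.26 to 9.02 FPKM in mutant cultures. These ranges overlapped, with a log2 fold change of 0.07 (SE 0.066, limma's adjusted p = 0.422).

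The gene acu-6 (NCU09873) encodes phosphoenolpyruvate carboxykinase, the enzyme that commits oxaloacetate to gluconeogenesis. It was listed beside aod-1 because, in the fungus Podospora anserina, the counterparts of aod-2 and aod-5 act on genes for both enzymes. Fructose-1,6-bisphosphatase was planned for the same list but was not included, since it was to be found by product text, which was lacking. The acu-6 transcript measured 46.6, 95.2 and 139 FPKM in control replicates 1, 2 and 3. In mutant replicates 1, 2 and 3 it measured 489, 261 and 485 FPKM. The strains did not overlap, control replicate 1 and mutant replicate 2 were again the lowest of their strains, and the order of the 6 cultures was that of aod-1. Across genes, the departures of control replicate 1 and mutant replicate 2 from their strain means correlated at 0.323, the highest of any control with any mutant.

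The acu-6 log2 fold change was 2.20 (SE 0.408, limma's adjusted p = 0.00391), and its mutant mean was 4.40 times its control mean. Unlike that of aod-1, its call held in all 14 alternatives, with log2 fold changes from 1.77 to 2.55. Within the controls acu-6 and aod-1 kept a nearly constant ratio, with acu-6 at 1.52, 1.36 and 1.27 times aod-1 in replicates 1, 2 and 3. In the mutant cultures the ratio was higher, at 2.65, 2.22 and 2.94. The order of aod-1 was found for 133 of the other 7796 tested genes (1.71%), aod-3 and acu-6 among them, and its exact reverse for 119 (1.53%).

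The 44 respiratory chain genes were then counted by function, with complex II not analysed here because no gene carried a symbol for it. Together 21 were higher, 3 were lower and 20 did not pass, so 54.5% passed the test against 47.8% of all tested genes. Their median log2 fold change was 0.21, against 0.009 over all tested genes. The 44 genes were not matched to others by level. Of the 816 genes near the aod-1 level 59.2% passed, with a median log2 fold change of 0.098. With quantile normalization the split was 14 higher and 5 lower. None of the 44 had a log2 fold change as large as that of aod-1, and the largest was 0.77. Only 1118 of the 9730 locus tags had a symbol of their own, so a list may not hold every gene of its complex.

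Complex I is the proton-pumping NADH dehydrogenase, which feeds electrons into ubiquinone. Of its 29 genes, 11 were higher, 2 were lower and 16 did not pass, with a median log2 fold change of 0.08 that turned to -0.016 with quantile normalization, where 4 were higher and 4 lower. These calls are 44.8% of the list, against 47.8% of all tested genes. The largest changes were those of nuo19.3 (log2 fold change 0.48, SE 0.056, limma's adjusted p = 0.000508) and nuo21.3c (0.39, SE 0.071, adjusted p = 0.0036). The next, nuo24, changed by 0.32 (SE 0.104, adjusted p = 0.0399), with a span that overlaps NCU10360. The nuo24 call was lost with quantile normalization (adjusted p = 0.088), without control replicates 2 and 3 (0.101 and 0.116) and without mutant replicates 2 and 3 (0.107 and 0.0664).

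The alternative NADH dehydrogenases enter the chain without pumping protons, as the alternative oxidase leaves it. Of these 4 genes, 3 were higher and 1 was lower, where 24.0% of all tested genes were higher and 23.8% lower. The gene nde-2, for an external enzyme, measured 38.0, 44.2 and 45.9 FPKM in control cultures and 70.4, 64.9 and 70.6 FPKM in mutant cultures. Its strains did not overlap (log2 fold change 0.68, SE 0.080, limma's adjusted p = 0.000522). The external enzyme gene nde-1 rose by a like amount (0.67, SE 0.081, adjusted p = 0.000579), although its annotated span overlaps that of NCU05226. The cultures ranked for nde-1 in the same order as for aod-1, but its mutant values were nearly equal, at 56.6, 55.9 and 56.4 FPKM. The internal enzyme gene ndi-1 rose from 1.43 ± 0.189 to 2.71 ± 0.546 FPKM (SD, n = 3 each; limma's adjusted p = 0.00944). The third external enzyme gene, nde-3, fell from 24.5 ± 0.776 to 20.1 ± 0.406 FPKM (SD, n = 3 each; limma's adjusted p = 0.00394).

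The alternative oxidase bypasses the cytochrome branch. Of the 4 listed complex IV genes, at the end of that branch, 3 were higher, against 24.0% of all tested genes. They were cox-4 by 0.43 log2 units (SE 0.064, limma's adjusted p = 0.0015), cox-6 by 0.27 (SE 0.072, adjusted p = 0.0191) and cya-4 by 0.22 (SE 0.066, adjusted p = 0.0283). The cox-4 span overlaps that of NCU05688. The calls of cox-6 and cya-4 were lost with quantile normalization (adjusted p = 0.0703 and 0.0942), without control replicate 2 (0.0767 and 0.102), without mutant replicate 2 (0.054 and 0.0896) and without mutant replicate 3 (0.0596 and 0.085), and that of cya-4 also without control replicate 3 (0.0595). The fourth gene, cya-5, which acts in the translation of a mitochondrially encoded subunit, did not pass (log2 fold change 0.10, SE 0.080, limma's adjusted p = 0.349), but did with quantile normalization (adjusted p = 0.0162).

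Of the 4 listed complex III genes 2 were higher, against 24.0% of all tested genes. They were fes-1, for the Rieske iron-sulphur protein, by 0.37 log2 units (SE 0.109, limma's adjusted p = 0.0266), and qcr7 by 0.36 (SE 0.081, adjusted p = 0.00916). The fes-1 call was lost without control replicates 1 and 2 (adjusted p = 0.0685 and 0.0788) and without mutant replicates 2 and 3 (0.057 and 0.0688). The genes qcr8 and cyt-1 did not pass (limma's adjusted p = 0.065 and 0.169), but qcr8 did with median centring (0.044) and without control replicate 3 (0.022). The cytochrome c gene cyc-1, which carries electrons from complex III to complex IV, measured 5.86, 7.51 and 7.49 FPKM in control cultures and 9.83, 9.18 and 21.4 FPKM in mutant cultures. It did not pass (log2 fold change 0.77, SE 0.287, limma's adjusted p = 0.0603), and passed without mutant replicate 3, its highest culture, at a smaller change of 0.41 (adjusted p = 0.0321), without mutant replicate 2 (adjusted p = 0.0426), and in all 6 cultures with quantile normalization (0.90, adjusted p = 0.0313).

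Relative to the cytochrome oxidase genes, aod-1 varied widely in both strains. Its FPKM amounted to 4.51%, 10.8% and 15.5% of the summed FPKM of cox-4, cox-6 and cya-4 in control replicates 1, 2 and 3. In mutant replicates 1, 2 and 3 it amounted to 24.2%, 13.96% and 19.2%. Mutant replicate 2 fell below control replicate 3, so the strains overlapped on this measure. The log2 measure also took in cya-5, which the percentages left out. On that scale, aod-1 minus the mean of the 4 listed complex IV genes was higher in mutant cultures by 1.03. The exact two-sided permutation test gave p = 0.2 (n = 3 each), where 0.1 is the smallest p possible.

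Both genes with an ATP synthase symbol were higher, against 24.0% of all tested genes. The rise was 0.40 log2 units for atp-1 (SE 0.076, limma's adjusted p = 0.00442) and 0.39 for atp-2 (SE 0.069, adjusted p = 0.00306). These genes encode the alpha and beta subunits of the catalytic part. They were among the most abundant of the 44 genes, at 589 ± 48.7 and 762 ± 51.1 FPKM in control cultures and 776 ± 33.9 and 1000.1 ± 36.2 FPKM in mutant cultures (SD, n = 3 each).

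**Figure D5:**
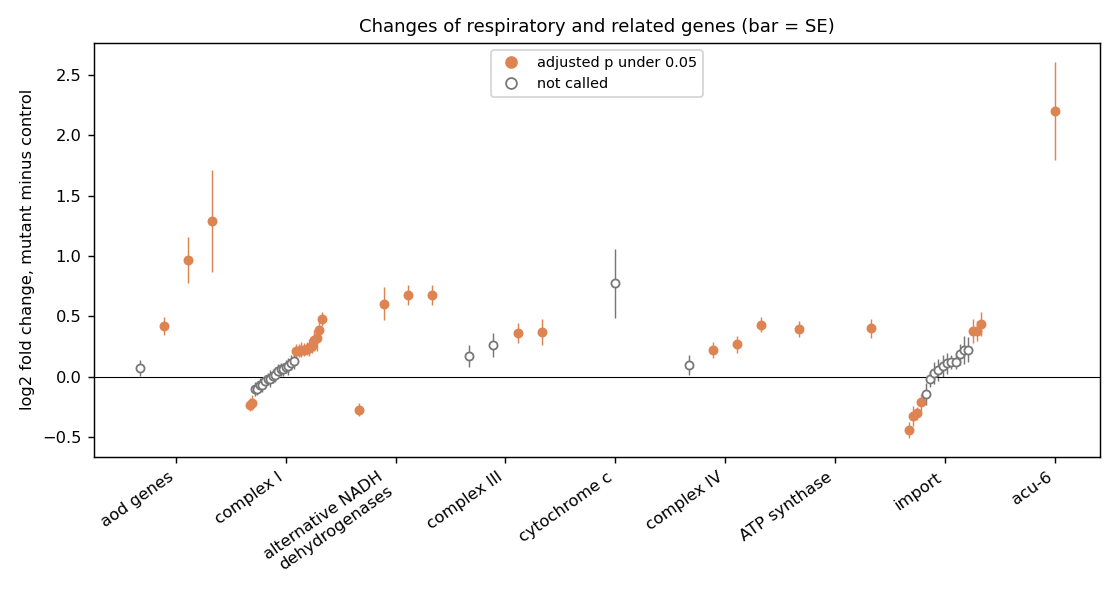
Log2 fold change (mutant minus control, bars ± SE) of each gene by functional list, filled where limma's adjusted p was under 0.05. The aod-1 point, at 1.29, is the highest of the aod genes on this scale and lies above all 44 respiratory chain genes, while acu-6 lies higher still at 2.20. By ratio of mean FPKM aod-3 was above aod-1, at 2.46 against 2.22, and its point is lowered by the pseudocount of 1.

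Genes known from mutants deficient in cytochromes, in many of which the alternative oxidase is induced, were also counted. Of 9 genes with a cyt symbol 2 were higher and 7 did not pass, so 22.2% passed against 47.8% of all tested genes. With all cultures scaled to equal FPKM totals 1 was lower beside the 2 higher, and with quantile normalization 5 were higher. The largest change was that of cyt-20, for a valyl-tRNA synthetase, which rose from 64.8 ± 4.85 to 99.9 ± 5.75 FPKM (SD, n = 3 each; limma's adjusted p = 0.000522). The other, cyt-26, rose by 0.31 log2 units (SE 0.084, limma's adjusted p = 0.0184), a call lost without control replicate 2 (adjusted p = 0.0601).

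The alternative oxidase reaches the mitochondrion through the import machinery, and of 18 import genes 3 were higher, 4 were lower and 11 did not pass (median log2 fold change 0.10), so 38.9% passed against 47.8% of all tested genes. The inner membrane translocase genes tim50 and tim44 rose by 0.43 log2 units (SE 0.097, limma's adjusted p = 0.00895) and 0.38 (SE 0.085, adjusted p = 0.00906). The outer membrane translocase gene tom5 fell by 0.44 (SE 0.067, adjusted p = 0.00159). The spans of tim44 and tom5 overlap those of NCU03230 and NCU02473. The summed FPKM of the 18 genes was 2136 ± 126 in control cultures and 2139 ± 148 in mutant cultures (SD, n = 3 each).

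The 5 genes whose pattern over the 6 cultures was most like that of aod-1 moved far less, but the measure used takes no account of size. Of the 133 genes that ranked the cultures in the order of aod-1, 16 had a log2 fold change above 1. In 6 of them it was at least that of aod-1. By Pearson's r on log2(FPKM + 1), a description over 6 cultures that fall into 2 strains, the closest were NCU04118 (r = 0.997), ala (r = 0.995), NCU01855 (r = 0.991), vma-9 (r = 0.991) and NCU01580 (r = 0.990). NCU04118 measured 99.3, 126 and 136 FPKM in control cultures and 159, 142 and 155 FPKM in mutant cultures, a log2 fold change of 0.34. NCU01855 rose by 0.55 log2 units (SE 0.146, limma's adjusted p = 0.0188), a call lost without mutant replicate 1 or 3 (adjusted p = 0.0611 and 0.0541). The NCU04118 call (limma's adjusted p = 0.0447) was lost whenever any culture but control replicate 3 was left out, with adjusted p from 0.0506 without control replicate 1 to 0.124 without mutant replicate 1, and also without a filter (0.0538), with equal FPKM totals (0.0805), with quantile normalization (0.0816) and without the variance trend (0.0539). The other 3, of which vma-9 encodes a subunit of the vacuolar proton pump, did not pass (limma's adjusted p from 0.051 to 0.142), and their spans overlap those of other genes.

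The 5 genes of most opposite pattern were NCU08333, NCU00263, NCU03771, NCU08804 and NCU02163, with r from -0.992 to -0.987 and log2 fold changes from -0.51 to -0.32. By comparison r was 0.958 for acu-6, whose change was larger than that of aod-1, and 0.902 for aod-3. Of the 5 opposite genes NCU08333 did not pass (limma's adjusted p = 0.082), and the others passed narrowly (0.027 to 0.0487). Their calls were lost in 8 of 13 alternatives for NCU02163, 9 of 14 for NCU03771, and 4 of 14 each for NCU00263 and NCU08804. NCU02163 lay near the pseudocount, at 0.799 to 2.19 FPKM, and its span overlaps that of NCU02164.

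The genes on either side of aod-1 in the reference assembly did not pass the test. NCU07954 measured 45.5 ± 3.92 FPKM in control cultures and 42.3 ± 1.61 FPKM in mutant cultures, and NCU07952 63.3 ± 1.49 and 61.5 ± 1.40 FPKM (SD, n = 3 each; limma's adjusted p = 0.297 and 0.511). No annotated span overlapped that of aod-1.

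Of 5 genes marking conidiation, con-6 was higher (log2 fold change 2.51), con-8 and con-10 were lower (-0.92 and -0.53), eas, for the hydrophobin of the conidial surface, did not pass, and con-13 was at or near 0 in every culture. Over all tested genes 24.0% were higher and 23.8% lower. The con-6 span overlaps that of NCU08768, and the con-10 call was lost when any culture but control replicate 3 was left out (limma's adjusted p from 0.0535 to 0.116). Their summed FPKM ran from 1795 to 1968 over control cultures and over mutant cultures from 1339 to 3171. The highest sum belonged to mutant replicate 1, which also held the highest aod-1 value and whose eas level was 2382 FPKM against 634 to 833 FPKM elsewhere. Mutant replicates 2 and 3 had sums of 1458 and 1339 FPKM, below every control, and aod-1 values above every control. The part of the conidial genes in the aod-1 result was not tested, and without mutant replicate 1 the aod-1 log2 fold change was 1.15 (limma's adjusted p = 0.115).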

How the data were processed

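The deposited table holds 1 FPKM value per gene and culture, made by the authors. STAR and Cuffnorm are named in the submitters' processing notes, with no version. The genome build, the annotation, the handling of strand and any scaling between libraries are not given in the sources used here. Per the labels' protocols, libraries were directional and made from poly(A)-selected RNA. FPKM hold no fragment counts, so no count test, counting interval or detection floor is given, and precision rests on the 3 cultures per strain.

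Values were taken as log2(FPKM + 1), and the 7797 genes with a mean of at least 1 FPKM were fitted with limma 3.58.1 in R 4.3.3, with eBayes allowing the variance to follow the mean. Mutant and control were compared with Benjamini-Hochberg adjustment over all of them. The code was tested on simulated data. Ranks and counts were made in Python 3.11.15. Symbols came from the RefSeq table of assembly NC12, which lists 9729 of the 9730 locus tags. It holds no product text, so lists rest on symbols alone (nuo, nde and ndi, cox and cya, and the like). Since the build is not named, no coordinates are given. The assignment of prd-2 to NCU01019 comes from knowledge of the study. Steps of 1 fragment were sought in ratios of values below 0.15 FPKM, of which 63.3% to 94.4% fell within 0.5% of ratios of small whole numbers.

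Named genes were the aod genes, prd-2, the neighbours of aod-1, the 3 listed genes on either side of it in control level, the 5 of highest and the 5 of lowest r, the 3 called genes of largest change in each list, and every member of a list of up to 6. The gene and the lists were chosen with earlier results of these data known. Alternatives were a pseudocount of 0.1, no filter, a minimum of 5 FPKM, quantile normalization, centring on medians, equal FPKM totals (TPM scale), the replicate number as a block, a fit without the variance trend, each culture left out, and the nearest 200 genes as the genes of similar expression.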

Additional observations from a re-analysis of the deposited data

How the results depend on the processing

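The aod-1 log2 fold change stayed positive in all 14 alternative fits. With all 6 cultures it ran from 1.22 with quantile normalization to 1.30 with a pseudocount of 0.1, and leaving out each culture in turn gave 0.80 to 1.69. Its adjusted p ran from 0.0108 without control replicate 3 to 0.115 without mutant replicate 1. It missed the threshold without a filter on low values (log2 fold change 1.29, limma's adjusted p = 0.0505). Without that filter more genes are tested. The percentile of aod-1 among genes of similar expression was 98.0 to 98.5 with all cultures, including 98.5 among the nearest 200 genes, and 94.5 to 98.8 with a culture left out. By size of change, rises and falls alike, it was 96.2 to 97.0 with all cultures and 91.0 to 98.1 with a culture left out. With all cultures the number of genes called ran from 3297 of 6708 tested, at a minimum of 5 FPKM, to 3814 of 9047 tested, without a filter. With a culture left out it ran from 2889 to 3460 of 7797 tested. The respiratory chain calls ran from 14 to 22 higher and from 2 to 5 lower, the 5 lower with quantile normalization. The excess of aod-1 over the complex IV genes ran from 0.98 to 1.04, and from 0.55 to 1.42 with a culture left out. The eas change ran from -0.074 without mutant replicate 1 to 0.88; the cause of these shifts was not tested.

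Replicate numbers are shared by the strains, but the labels do not say that they pair cultures. The departures of cultures with 1 number from the means of their strains correlated at -0.104, -0.175 and 0.068 across genes, and no control correlated best with its own number. The highest correlation was 0.323, for control replicate 1 with mutant replicate 2. It was 0.226 for control replicate 2 with mutant replicate 3, and 0.191 for control replicate 3 with mutant replicate 1. With the replicate block, 3363 genes were called, the respiratory chain calls were 20 higher and 3 lower, and aod-1 had a log2 fold change of 1.29 and an adjusted p of 0.0547 by limma, so its call was not made. Of the other named genes, in that fit cya-4 (adjusted p = 0.0535), nuo24 (0.0598), NCU04118 (0.0671), NCU00263 (0.0533), NCU03771 (0.0566), NCU08804 (0.0585) and NCU02163 (0.0663) also missed the threshold, while qcr8 (0.0253) and cyc-1 (0.0423) passed it. FPKM give no depth, so what depth limits for low genes such as aod-3 and ndi-1 is unknown.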

Other observations

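The gene of similar expression that came nearest to aod-1 in spread among controls was NCU03376, chosen after its values were seen. It measured 18.6, 54.4 and 54.8 FPKM in control replicates 1, 2 and 3 and 209.6, 127 and 204 FPKM in mutant replicates 1, 2 and 3. Control replicate 1 and mutant replicate 2 were the lowest of their strains for this gene, as for aod-1 and acu-6. Its control SD on the log2 scale was 0.87 and its log2 fold change 2.17 (SE 0.414, limma's adjusted p = 0.00442).

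Among the 16 genes of similar expression that rose by more than aod-1, lao (NCU01066) rose most, from 16.3, 26.1 and 25.7 FPKM in the controls to 229, 359 and 352 FPKM in mutant cultures (log2 fold change 3.73, SE 0.227, limma's adjusted p = 3.45e-05). In the same group, the vitamin B6 synthesis gene pdx-2 rose by 1.46 log2 units (SE 0.185, limma's adjusted p = 0.000701). Its lowest values within each strain were in control replicate 1 and mutant replicate 2, as for 5 of the 16 genes, while another 5 of them had their highest values in those cultures. Among the latter was pdx-4 (log2 fold change 1.39, SE 0.245, limma's adjusted p = 0.00315). It measured 107, 69.1 and 75.5 FPKM in control replicates 1, 2 and 3, and 208, 305 and 163 FPKM in mutant replicates 1, 2 and 3. These genes were also picked after their values were seen.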
